A study of Mus musculus with 14 samples.

Results

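The genes of histone and DNA modifying enzymes were examined in 81K1 mouse embryonic stem cells (ESC), before and after knockdown (kd) of Smarcb1, a core subunit of the esBAF chromatin remodelling complex. Members were chosen by gene symbol alone. They were the protein-coding genes of the GENCODE M21 annotation (mm10) that are named Kdm, Kmt, Hdac, Setd, Chd or Dnmt with a number, plus Tet1, Tet2 and Tet3. The rule found 63 members among 21938 protein-coding genes. 81K1 cells are 1 clone derived from OG2 ESC and carry a doxycycline-inducible shRNA against Smarcb1 in the Rosa26 locus. Control cells (ctrl) were the same cells without doxycycline, and Smarcb1 kd cells received 1 µg/ml doxycycline for 72 h. The construct was therefore shared by both conditions, whereas doxycycline itself was given to the kd cells only. Chromatin immunoprecipitation and sequencing (ChIP-seq) was done for 2 proteins, Smarca4 and Ezh2, and 3 histone marks, H3K27me3, H3K27ac and H3K4me3. There was 1 library per antibody and condition, so a difference between ctrl and kd has no replicate check and none was tested. Smarca4 and H3K27me3 were immunoprecipitated by Active Motif and the other antibodies in the authors' laboratory. Differences between these groups of antibodies cannot be told apart from differences between laboratories.

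Most Kmt and Setd enzymes attach methyl groups to lysines, Kdm enzymes remove such groups, and Hdac enzymes remove acetyl groups. Chd proteins are ATP-dependent remodellers that slide or exchange nucleosomes. Dnmt enzymes methylate cytosine in DNA and Tet dioxygenases oxidise the methyl group, which begins its removal. Of the proteins and marks measured, Smarca4 is the ATPase of esBAF, and Ezh2 is the methyltransferase of the Polycomb repressive complex PRC2, which makes H3K27me3. H3K27ac, on the same lysine, marks active promoters and enhancers, and H3K4me3 marks promoters. In ESC many developmental promoters carry H3K4me3 and H3K27me3 together.

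The deposited files were lists of called regions, namely MACS2 peaks for Smarca4 and Ezh2 and SICER islands for the histone marks. A gene was counted as called when a region touched its gene region, taken from 1 kb before the transcription start (TSS) up to the end of the gene. A second interval, 1 kb either side of the start of any coding transcript, is termed the promoter window, and it was added after the data had been seen because 9 members had no H3K4me3 at the annotated gene start in either condition (Dnmt1, Dnmt3c, Dnmt3l, Hdac4, Hdac7, Hdac9, Kdm4c, Kdm5d and Tet1). The strength of a region is given as its standing, the percentage of regions in its own list with a weaker score or p-value. Islands with a p-value written as 0 share 1 standing, which was 92.3 in the ctrl and 86.2 in the kd H3K4me3 list and 89.5 and 95.6 for H3K27me3, so top standings differ between lists by construction. The number of reads behind each list is unknown. The lists held between 5364 and 79014 regions. Of 10 ESC markers, 9 had H3K4me3 at the gene start in both conditions, the exception being Esrrb, which had it in neither. H3K27ac was called there in both conditions at 4 of them (Pou5f1, Nanog, Sox2 and Zfp42), after kd alone at 4 (Tfcp2l1, Klf4, Tbx3 and Dppa3) and in neither at 2 (Prdm14 and Esrrb). Of 24 markers of endoderm, mesoderm, neural cells, fibroblasts and trophoblast, 0 had H3K27ac there in ctrl and 1, Sox1, had it after kd. The Smarcb1 gene itself had Smarca4, H3K27ac and H3K4me3 regions in both conditions, which does not check the knockdown because the shRNA acts on the transcript.

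Sequences are printed for members whose calls differed between conditions. Each is the mm10 plus strand over a peak, or its central 300 bp where the peak was longer, with CG dinucleotides in capitals. Smarca4 was called only after kd at the starts of Hdac6 (chrX:7948066-7948365, 19 CG) and Kdm8 (chr7:125444350-125444599, 5 CG), and only in ctrl in an Hdac8 intron (chrX:102302562-102302861, 3 CG).
Hdac6 start, Smarca4 kd-only: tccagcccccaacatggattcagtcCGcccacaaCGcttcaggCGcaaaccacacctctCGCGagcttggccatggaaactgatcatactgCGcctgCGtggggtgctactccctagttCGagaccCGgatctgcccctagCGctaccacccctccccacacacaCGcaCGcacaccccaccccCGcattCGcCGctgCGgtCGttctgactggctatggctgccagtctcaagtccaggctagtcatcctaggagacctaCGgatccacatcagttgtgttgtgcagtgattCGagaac
Kdm8 start, Smarca4 kd-only: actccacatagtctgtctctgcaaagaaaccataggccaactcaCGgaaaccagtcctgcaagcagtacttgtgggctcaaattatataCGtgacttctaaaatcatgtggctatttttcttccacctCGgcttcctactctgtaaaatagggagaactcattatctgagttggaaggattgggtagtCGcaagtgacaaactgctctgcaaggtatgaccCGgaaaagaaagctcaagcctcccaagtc
Hdac8 intron, Smarca4 control-only: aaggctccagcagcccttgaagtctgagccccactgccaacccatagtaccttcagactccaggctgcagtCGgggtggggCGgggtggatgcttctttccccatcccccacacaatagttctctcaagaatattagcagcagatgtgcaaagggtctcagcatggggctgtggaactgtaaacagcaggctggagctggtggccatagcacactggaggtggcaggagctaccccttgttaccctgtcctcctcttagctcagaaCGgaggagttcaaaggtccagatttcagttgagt
Ezh2 was called only after kd in the first part of Kdm7a (chr6:39205571-39205853, 36 CG) and only in ctrl at the start of Dnmt3b (chr2:153649421-153649720, 57 CG). Both are dense in CG.
Kdm7a intron, Ezh2 kd-only: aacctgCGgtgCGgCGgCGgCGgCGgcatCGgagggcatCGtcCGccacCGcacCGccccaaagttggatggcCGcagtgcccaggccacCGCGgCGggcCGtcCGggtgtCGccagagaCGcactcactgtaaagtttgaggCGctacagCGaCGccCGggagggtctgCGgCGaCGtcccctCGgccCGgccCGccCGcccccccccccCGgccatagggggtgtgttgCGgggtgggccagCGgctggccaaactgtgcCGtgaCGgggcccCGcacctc
Dnmt3b start, Ezh2 control-only: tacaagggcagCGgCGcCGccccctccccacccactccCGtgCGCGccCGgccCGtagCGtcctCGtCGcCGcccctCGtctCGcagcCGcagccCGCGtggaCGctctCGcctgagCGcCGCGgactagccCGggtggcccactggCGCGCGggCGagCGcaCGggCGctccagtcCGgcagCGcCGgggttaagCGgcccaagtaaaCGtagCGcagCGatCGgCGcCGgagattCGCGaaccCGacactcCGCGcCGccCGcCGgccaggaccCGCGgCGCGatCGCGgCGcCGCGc
The RefSeq promoters of Dnmt3l and Dnmt1 (mm10, strand of the gene, from 250 bases before to 50 after the start) are shown because H3K27me3 was called at both annotated gene starts in ctrl and not after kd. The Dnmt3l promoter (chr10:78042037-78042336, plus strand) and the Dnmt1 promoter at the annotated gene start (chr9:20959839-20960138, minus strand) hold 6 and 2 CG. A second Dnmt1 start, 7265 bp further into the gene (chr9:20952574-20952873, minus strand), holds 33 CG and is the one that carried H3K4me3. RefSeq promoters were matched for 47 of the 63 members.
Dnmt3l promoter: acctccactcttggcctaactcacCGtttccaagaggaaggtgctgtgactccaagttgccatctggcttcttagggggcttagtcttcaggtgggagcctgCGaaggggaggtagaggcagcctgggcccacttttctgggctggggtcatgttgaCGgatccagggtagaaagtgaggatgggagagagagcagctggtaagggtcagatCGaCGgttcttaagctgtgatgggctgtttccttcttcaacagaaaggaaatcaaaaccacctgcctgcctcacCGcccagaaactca
Dnmt1 promoter at the annotated gene start: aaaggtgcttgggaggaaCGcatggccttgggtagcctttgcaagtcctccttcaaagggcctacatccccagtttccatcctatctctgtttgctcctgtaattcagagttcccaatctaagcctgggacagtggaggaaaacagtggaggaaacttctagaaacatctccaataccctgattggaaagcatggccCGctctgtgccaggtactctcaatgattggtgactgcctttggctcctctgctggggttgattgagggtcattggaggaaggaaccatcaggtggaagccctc
Dnmt1 promoter at the second start: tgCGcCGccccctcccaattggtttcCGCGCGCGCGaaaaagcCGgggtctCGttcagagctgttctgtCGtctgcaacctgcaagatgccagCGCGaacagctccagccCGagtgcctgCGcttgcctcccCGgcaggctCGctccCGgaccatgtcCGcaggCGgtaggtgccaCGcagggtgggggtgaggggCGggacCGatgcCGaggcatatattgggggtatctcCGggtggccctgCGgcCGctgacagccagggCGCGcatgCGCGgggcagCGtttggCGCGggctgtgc

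H3K4me3 and Smarca4 were called at most members' promoters. H3K4me3 was called in the promoter window of 59 members in ctrl and 60 after kd, which is 93.7% and 95.2%, against 59.2% and 63.3% of all protein-coding genes. The 3 members without it in both conditions were Dnmt3c, Hdac9 and Kdm5d, and Hdac10 had it after kd alone (0.636% of all genes had it in ctrl alone and 4.70% after kd alone). Smarca4 was called there in 57 and 59 members (90.5% and 93.7%, against 65.5% and 66.4% of all genes), with 0 members in ctrl alone and 2, Hdac6 and Kdm8, after kd alone (2.53% and 3.46% of all genes). Dnmt3c is a DNA methyltransferase known from the male germ line, and it had no region of Smarca4, Ezh2, H3K27me3 or H3K4me3 in either condition. Kdm5d lies on the Y chromosome, and its single region in all lists was an H3K27ac island in ctrl that is 100% repeat-masked. Of 3 other Y-linked genes, Eif2s3y and Ddx3y had no region from any of the 5 antibodies, and Uty had H3K27ac and H3K4me3 in its gene region in both conditions but none at a start.

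H3K27ac was called in the promoter window of 34 members in ctrl (54.0%) and 48 after kd (76.2%). Over all genes the shares were 17.3% and 32.7%. No member had it in ctrl alone, against 1.94% of all genes, and 14 members had it after kd alone (22.2%, against 17.4%). Among genes with H3K4me3 in both conditions, 14 of 59 members (23.7%) and 26.9% of 12807 genes had H3K27ac after kd alone. How this compares with the background depends on the denominator, since 57.6% of these members and 27.2% of these genes already had H3K27ac in ctrl. Of those without it in ctrl, 56.0% of 25 members and 37.0% of 9324 genes had it after kd. The 14 members were Chd4, Dnmt1, Dnmt3b, Kdm3a, Kdm4a, Kdm5c, Kdm6a, Kdm6b, Kdm7a, Kmt2b, Setd3, Setd6, Setd7 and Tet3. The kd list was the longer, with 51100 islands against 39091.

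**Figure D1:**
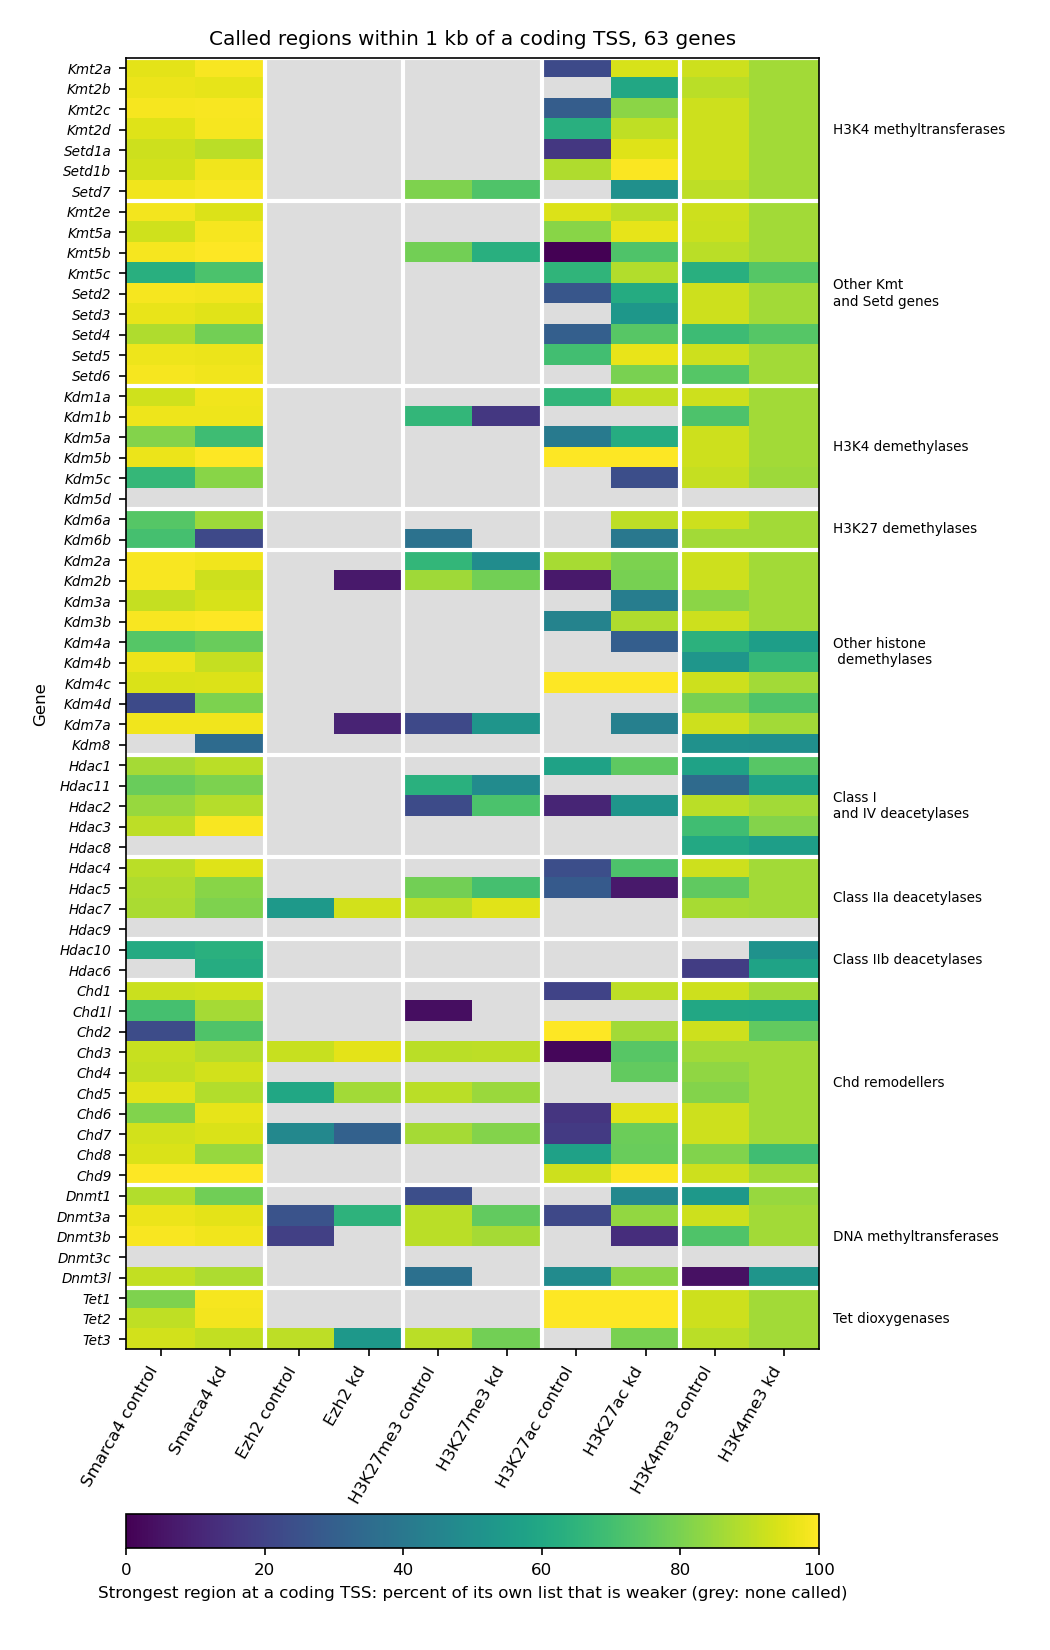
Strongest called region within 1 kb of a coding TSS for each of the 63 genes (rows, grouped by role) in each of the 10 libraries (columns). Colour gives the percentage of that library's list that is weaker, and grey means that no region was called. H3K4me3 and Smarca4 are called in nearly all rows, Ezh2 in 7 control and 8 kd rows.

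H3K27me3 and Ezh2 occupied fewer members. Within the promoter window, 20 members carried H3K27me3 in ctrl (31.7%, against 36.9% of all genes) and 16 after kd (25.4%, against 31.0%). All of these also carried H3K4me3 in the promoter window in the same condition, but the marks can lie at different starts of a gene. At the annotated gene start, 3 members had H3K27me3 without H3K4me3 in ctrl (Dnmt1, Dnmt3l and Hdac7). After kd 2 did (Hdac7 and Tet3). The shares were 4.76% and 3.17%, against 13.7% and 7.60% of all genes. In bulk chromatin, marks on the same nucleosomes and marks in different cells cannot be told apart, nor can fewer cells with a region from a weaker signal per cell. The 4 members with H3K27me3 in the promoter window in ctrl alone were Chd1l, Dnmt1, Dnmt3l and Kdm6b (6.35%, against 8.36% of all genes). After kd alone 0 had it there (against 2.45%). For Chd1l the island only touched the edge of the window. Members with all 3 histone marks in the promoter window, not always at 1 start, numbered 9 in ctrl and 12 after kd (14.3% and 19.0%, against 2.09% and 5.22% of all genes). At the annotated gene start they numbered 6 and 10 (9.52% and 15.9%, against 1.31% and 4.13%). In the promoter window, those with H3K4me3 and H3K27ac but no H3K27me3 numbered 25 and 36 (39.7% and 57.1%, against 13.9% and 25.8%). Those with H3K4me3 alone numbered 14 and 8 (22.2% and 12.7%, against 21.5% and 13.5%). Ezh2 was called in the window of 7 members in ctrl and 8 after kd (11.1% and 12.7%, against 8.13% and 14.0% of all genes). In both conditions these lay within the H3K27me3 set. They were Chd3, Chd5, Chd7, Dnmt3a, Hdac7 and Tet3 in both conditions, Dnmt3b in ctrl alone, and Kdm2b and Kdm7a after kd alone. Over all genes, Ezh2 was called there in ctrl alone in 0.375% and after kd alone in 6.21%.

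**Figure D2:**
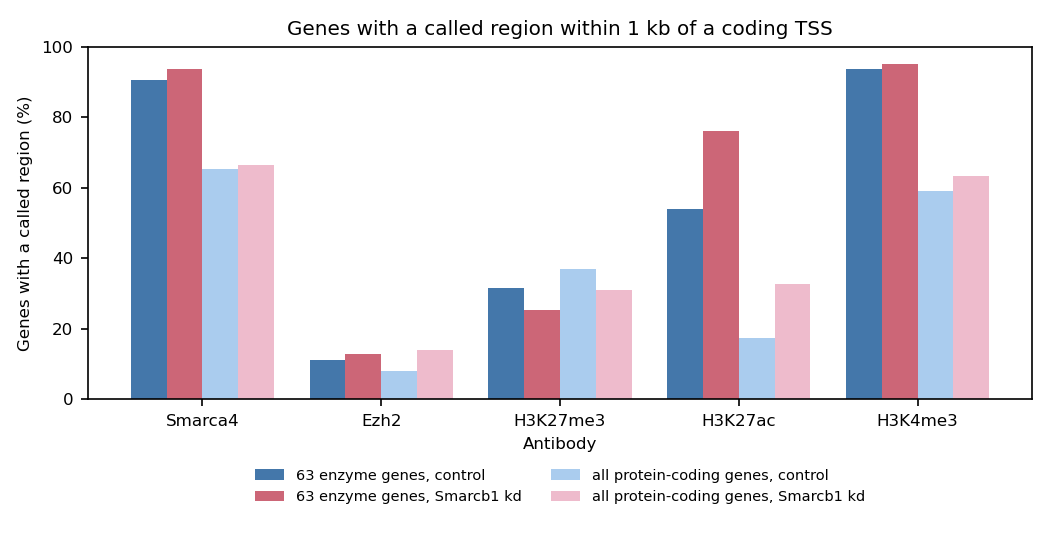
Percentage of genes with a called region within 1 kb of a coding TSS, for the 63 enzyme genes and for all protein-coding genes (bars from 0, 1 library each). The enzyme genes exceed all genes for Smarca4, H3K27ac and H3K4me3 in both conditions and lie below them for H3K27me3.

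Over whole gene regions, Smarca4 was called in 59 members in ctrl and 60 after kd (70.3% and 71.7% of all genes), with 1 member in ctrl alone and 2 after kd alone (2.45% and 3.85% of all genes). Ezh2 was called in 10 and 9 members (12.6% and 15.4% of all genes), with Chd9, Dnmt3b and Kdm2a in ctrl alone and Kdm2b and Kdm7a after kd alone (3 and 2 members, 3.19% and 5.96% of all genes). H3K27me3 was called in 22 and 20 (42.4% and 35.6%), with 3 in ctrl alone (Chd1l, Dnmt1 and Dnmt3l) and 1 after kd alone (Kdm1a), against 9.74% and 2.95%. H3K27ac was called in 42 and 53 (32.4% and 48.2%), with 1 in ctrl alone and 12 after kd alone (3.06% and 18.9%). H3K4me3 was called in the same 61 members in both conditions, against 63.4% and 68.1% of all genes, so 0 members differed (0.825% of all genes had it in ctrl alone and 5.49% after kd alone). Members were long genes, with a median gene region of 52.8 kb (4.1 to 870.5) against 18.4 kb for all. Longer genes are touched by more regions. Among genes of at least 20 kb, H3K27ac was called after kd alone in 10 of 56 members (17.9%) and in 19.6% of 10451 genes. Over all 63 members the share was 19.0%. With a stricter threshold, −log10 p of at least 10 in both lists, it was 30.2%, against 18.2% of all genes.

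Of the 5 DNA methyltransferases, 4 carried H3K27me3 in ctrl, and each of these had a shorter length of it, or none, after kd. Over all genes 42.4% carried it in ctrl. Of all genes with an island in either condition, 61.6% had less after kd. Dnmt3a, a de novo methyltransferase (chr12:3806007-3914443, plus strand), lay under 1 ctrl island of 55400 bp that reached 33.4 kb into the gene region. After kd 2 islands of 6800 and 5600 bp flanked a gap at the promoter, and 7.0 kb of the gene region was covered. At that gap the kd library had an Ezh2 peak of 1664 bp (score 208), where ctrl had 2 short peaks (scores 40 and 51). H3K27ac was also called at the Dnmt3a promoter after kd (standing 83.9), in an island of 2000 bp that was absent from the ctrl list. H3K27ac islands in the gene numbered 1 in ctrl and 8 after kd, and H3K4me3 islands 2 and 4.

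Dnmt3b, the other catalytic de novo enzyme (chr2:153649450-153687730, plus strand), had a ctrl H3K27me3 island of 20400 bp across its start. The kd island of 16000 bp ended upstream of the start. The CG-rich Ezh2 peak at the start was called in ctrl alone (score 44, standing 19.1), and an H3K27ac island of 1400 bp was called there after kd alone (standing 13.2). Both stood low in their lists. H3K4me3 covered the start in both conditions. Smarca4 had 3 peaks in ctrl and 7 after kd, and every kd peak overlapped a ctrl peak.

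Dnmt1, the maintenance methyltransferase (chr9:20907209-20959888, minus strand), had a ctrl H3K27me3 island of 5200 bp over the annotated gene start (standing 23.9) and none after kd. Its H3K4me3 island lay at the second start in both conditions, 8400 bp long in ctrl and 3400 bp after kd. H3K27ac was called at that start after kd alone (2600 bp, standing 46.5). Smarca4 peaks in Dnmt1 numbered 8 in ctrl, 7 of them control-only, and 3 after kd, 2 of them kd-only. The shared peak sat on the second start and was the strongest in both lists, with scores of 190 and 136. Dnmt3l, a catalytically inactive partner of the de novo enzymes (chr10:78041947-78063622, plus strand), had a ctrl H3K27me3 island of 5000 bp at its start (standing 36.8) and none after kd. Its H3K4me3 island within the gene had a standing of 4.65 in ctrl and 52.0 after kd, with widths of 2400 and 6400 bp. Smarca4 had 11 peaks in Dnmt3l in each condition. The calls at Dnmt1 and Dnmt3l rest on ctrl islands of low standing. In Dnmt3c the only regions were 1 H3K27ac island in ctrl (92.9% repeat-masked) and another after kd (57.4%).

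The Tet genes differed from each other. Tet1 and Tet2, the members known for high expression in ESC, had no Ezh2 or H3K27me3 in either condition. A coding start of each lay in a very wide H3K27ac island, 27400 bp in ctrl and 28400 bp after kd for Tet1, and 47000 and 32800 bp for Tet2. They were the only H3K27ac islands in members with a p-value written as 0. Smarca4 peaks numbered 26 in ctrl and 21 after kd in Tet1, and 18 and 24 in Tet2. For Tet1 9 ctrl peaks were control-only and 6 kd peaks kd-only, and for Tet2 the numbers were 5 and 9. H3K4me3 in Tet1 spanned 41000 bp in ctrl, and in the kd list the same stretch held islands of 33600 and 10000 bp.

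Tet3 (chr6:83362373-83459084, minus strand) was the Polycomb-marked member of the family. A ctrl H3K27me3 island of 58000 bp covered its start and first part, and a second of 8200 bp lay near its end. After kd 3 islands of 11200, 7600 and 11000 bp remained of the first and none of the second. The covered length was 58.5 kb in ctrl and 22.1 kb after kd. Ezh2 was called at the promoter in both, with a score of 214 (standing 90.2) in ctrl and 144 (standing 53.5) after kd. At the same place an H3K27ac island of 2000 bp was called after kd alone (standing 79.7), next to H3K4me3 islands of 3600 and 4000 bp. Smarca4 had 10 peaks in each condition.

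**Figure D3:**
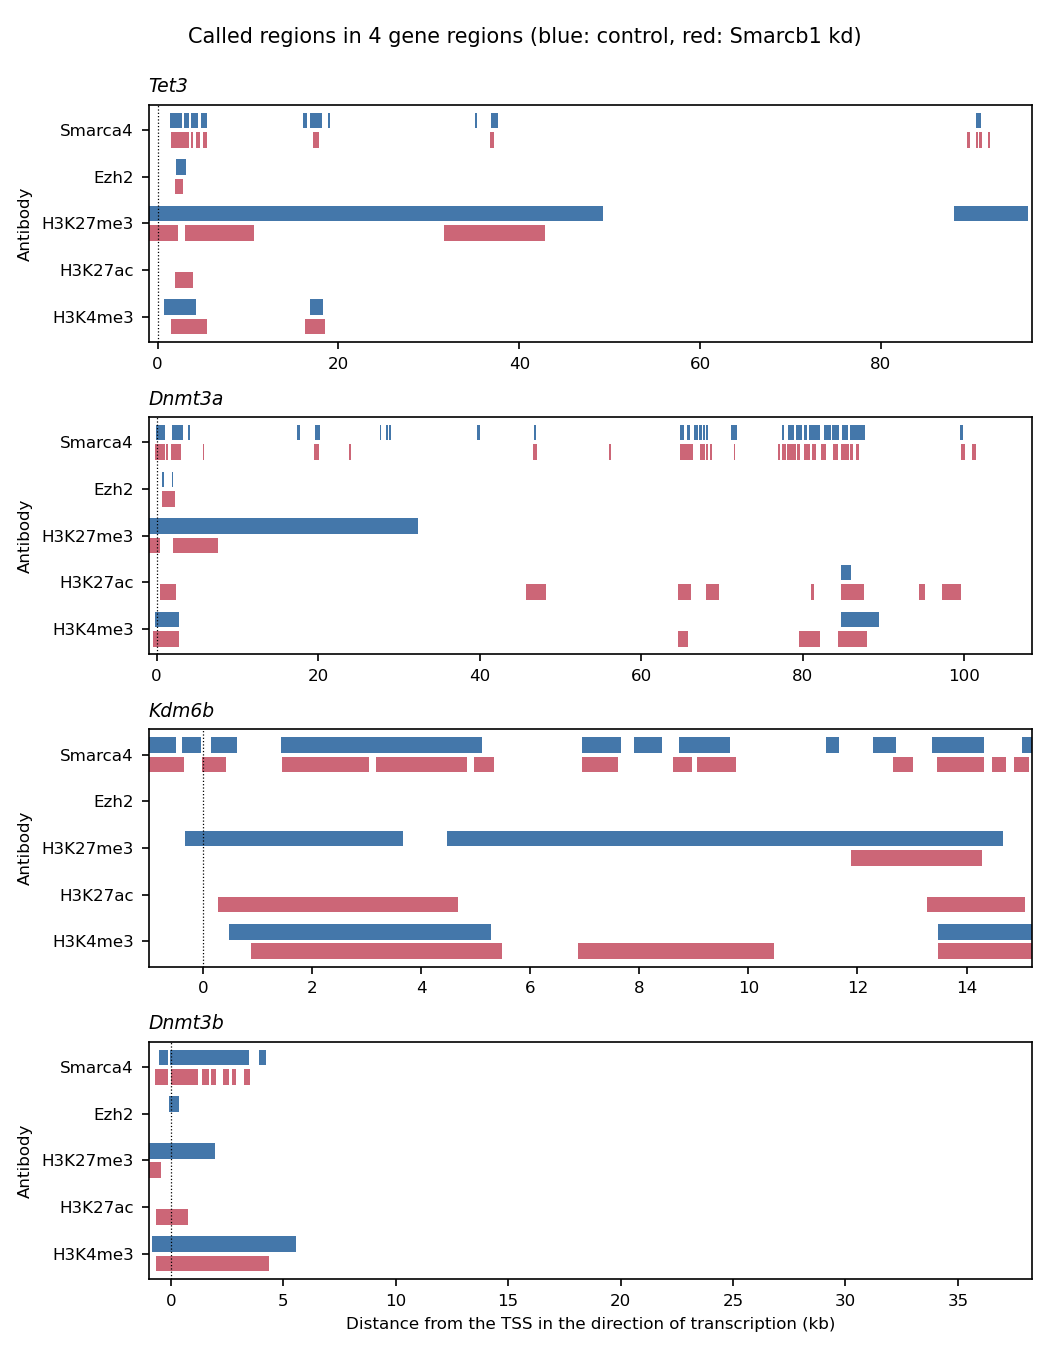
Called regions in the gene regions of Tet3, Dnmt3a, Kdm6b and Dnmt3b against distance from the TSS in kb, in the direction of transcription (blue, control; red, Smarcb1 kd). Bars are clipped at the gene region. The ctrl H3K27me3 islands cover more of each gene than the kd islands, and the H3K27ac bars nearest to each TSS are red only, whereas a control bar lies further inside Dnmt3a at another coding start.

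Of the H3K27 demethylases, Kdm6b carried H3K27me3 and Kdm6a did not. Kdm6b (chr11:69398508-69413675, minus strand) had ctrl islands of 10200 and 4000 bp that covered 14.2 kb of its region. After kd a single island of 2400 bp remained near the gene's end (standing 11.9), and 2.4 kb was covered. H3K27ac was called in 0 islands in ctrl and 2 after kd, 1 at the promoter (4400 bp, standing 40.0) and 1 at the end of the gene (1800 bp, standing 81.8), where it also touches Tmem88. Ezh2 was not called in either condition. Smarca4 had 11 and 12 peaks, of which 2 and 1 were called in that condition only. The strongest peak by score was 378 in ctrl and 230 after kd. Kdm6a, on the X chromosome, had an H3K27ac island of 3400 bp at its start after kd (standing 90.0) and none in ctrl, with an H3K4me3 island of 4800 bp in both conditions.

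Among the other histone demethylases, Kdm2b, a CpG-binding subunit of a variant Polycomb complex, had 8.6 kb of H3K27me3 in ctrl and 8.8 kb after kd, most of it at an internal start. An Ezh2 peak was called there after kd alone (score 37, standing 6.77). Kdm2b also had 3 H3K27ac islands in ctrl and 8 after kd, and 24 Smarca4 peaks after kd against 18 in ctrl. In Kdm7a, a demethylase of H3K9 and H3K27, the ctrl H3K27me3 island of 1200 bp lay just inside the gene's start, and the kd island of 4000 bp lay upstream of it. Both weak kd-only Ezh2 peaks of Kdm7a (scores 43 and 14) and a kd-only H3K27ac island (1000 bp, standing 43.6) lay within the stretch of that ctrl island. In Kdm1b, an H3K4 demethylase, the H3K27me3 length was 2.2 kb in ctrl and 4.0 kb after kd, at standings of 66.1 and 16.3. In Kdm1a the only H3K27me3 region was a kd island of 600 bp that is 59.5% repeat-masked. Kdm8 had no Smarca4 peak in ctrl and 2 after kd, at its start, with scores of 49 and 41.

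Polycomb regions were called in few of the methyltransferase genes. All 7 H3K4 methyltransferases (Kmt2a to Kmt2d, Setd1a, Setd1b and Setd7) had Smarca4 and H3K4me3 in the promoter window in both conditions. H3K27ac was called in 5 of them in both conditions and in Kmt2b and Setd7 after kd alone (standings 60.1 and 50.0). Of the other 9 Kmt and Setd genes, 7 had H3K27ac in both and Setd3 and Setd6 after kd alone (standings 53.1 and 79.9). The Setd6 island also touches Ndrg4. H3K27me3 was called at Setd7 and Kmt5b only, and Ezh2 in 0 of the 7 and 0 of the 9. In the promoter windows of all genes, H3K27me3 was called in 36.9% in ctrl and 31.0% after kd. For Ezh2 the shares were 8.13% and 14.0%, so 0 among so few genes is near the background. In Kmt5b, which methylates H4K20, the covered length was 1.2 kb in each condition. Setd1a, a catalytic subunit of the COMPASS H3K4 methyltransferase, held the strongest kd-only Smarca4 peak of all members, in an exon 1082 bp from the TSS (499 bp, score 226, standing 89.6). Kmt2d had 3 Smarca4 peaks in ctrl and 9 after kd, 5 of them kd-only.

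Of the 5 class I and IV genes, all had H3K4me3 in the promoter window in both conditions (58.6% of all genes). Hdac2 and Hdac11 had H3K27me3 there in both conditions (28.5% of all genes). Hdac8 was the only member with Smarca4 in ctrl alone. Its 4 ctrl peaks lay in introns between 199637 and 202647 bp from the start and had scores of 127, 71, 49 and 44. Hdac6, a mainly cytoplasmic class IIb enzyme that deacetylates tubulin, had no Smarca4 peak in ctrl and 2 after kd at its start, with scores of 83 and 57. Both Hdac8 and Hdac6 lie on the X chromosome. Smarca4 peaks on that chromosome numbered 1566 in ctrl and 2149 after kd, although the whole list shrank from 79014 to 72339. The class IIa genes, whose products act as signal-dependent corepressors, included Hdac5 and Hdac7, both with long H3K27me3. Hdac7 had 50.9 kb in ctrl and 39.4 kb after kd, and its Ezh2 peak at an internal start had a score of 78 (standing 53.6) in ctrl and 642 (standing 93.3) after kd. Hdac5 had 25.4 kb in ctrl and 6.4 kb after kd, with 13 Smarca4 peaks in ctrl and 4 after kd. Of the ctrl peaks of Hdac5, 10 were control-only, with scores between 25 and 124, and the peak at its start was called in both (187 and 161). Hdac9 had no H3K4me3 in the promoter window. Its H3K27me3 island of 4000 bp in ctrl and 3400 bp after kd lay in an intron, where Ezh2 was called after kd alone (score 69).

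Of 10 Chd remodellers, all had Smarca4 and H3K4me3 in the promoter window in both conditions. Chd3, Chd5 and Chd7 had Ezh2 and H3K27me3 there in both. Chd3 and Chd5 are alternative ATPases of the NuRD deacetylase complex, and Chd7 is the gene altered in CHARGE syndrome. The Ezh2 score at the Chd3 start was 229 in ctrl and 756 after kd (standings 91.7 and 96.0). At the Chd5 start it was 85 and 438 (standings 59.6 and 86.1). For Chd7 the strongest Ezh2 peak in the promoter window had a standing of 46.6 in ctrl and 31.2 after kd. Scores come from separately called libraries. H3K27me3 covered 21.3 kb of Chd3 in ctrl and 22.1 kb after kd, 28.1 and 18.8 kb of Chd5, and 11.6 and 5.8 kb of Chd7. Chd5 also had 24 Smarca4 peaks in ctrl, 13 of them control-only, and 16 after kd, 1 of them kd-only. Chd4, the main NuRD ATPase in ESC, had no H3K27me3 and had H3K27ac at its promoter after kd alone (2400 bp, standing 76.1).

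Chd9 had the largest difference in H3K27me3 length of any member. Ctrl islands of 33000, 9000 and 10400 bp covered 52.4 kb of the gene, and after kd 1 island of 5000 bp was called. That kd island was at least 50% repeat-masked. Chd9 lies on chromosome 8, where the number of H3K27me3 islands was 1071 in ctrl and 1351 after kd although the whole list shrank from 22909 to 18320. The length covered on that chromosome was 13614.6 and 13118.0 kb. Both Ezh2 peaks in Chd9 were control-only (scores 109 and 123) and lay in sequence that was 90.7% and 49.1% repeat-masked. Smarca4 peaks were more numerous in Chd9 than in any other member, with 39 in ctrl and 43 after kd, and its strongest control-only peak had a score of 140. H3K27ac islands in Chd9 numbered 13 and 15, but the length they covered was 50.8 kb in ctrl and 98.8 kb after kd, or 22.4% and 43.5% of the gene region.

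Summed over the members, the length under H3K27me3 was 331.7 kb in ctrl and 150.8 kb after kd, that is 6.38% and 2.90% of their gene regions. The kd length was 45.5% of ctrl, against 71.3% for all protein-coding genes (103864.1 and 74005.6 kb). Of 23 members with an island in either condition, 18 had less after kd, 4 had more (Chd3, Kdm1a, Kdm1b and Kdm2b) and 1 was equal. Among all genes 61.6% had less. The kd length was at or below 50% of ctrl in 13 of the 22 members with a ctrl island, which is 59.1%, against 37.5% of all genes. Among gene regions of at least 20 kb it was 11 of 20 members (55.0%), against 36.0%. The difference was concentrated in 5 members, Chd9, Tet3, Dnmt3a, Hdac5 and Kdm6b, which made up 141.0 of the 180.8 kb. Without them the members had 147.8 kb in ctrl and 108.0 kb after kd, or 73.0% of ctrl, against 71.3% for all genes, but these 5 were picked by the difference itself. Without chromosomes 8, X and Y the members' kd length was 52.2% of ctrl. With 1 library per condition these shares describe the lists, and were not tested.

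**Figure D4:**
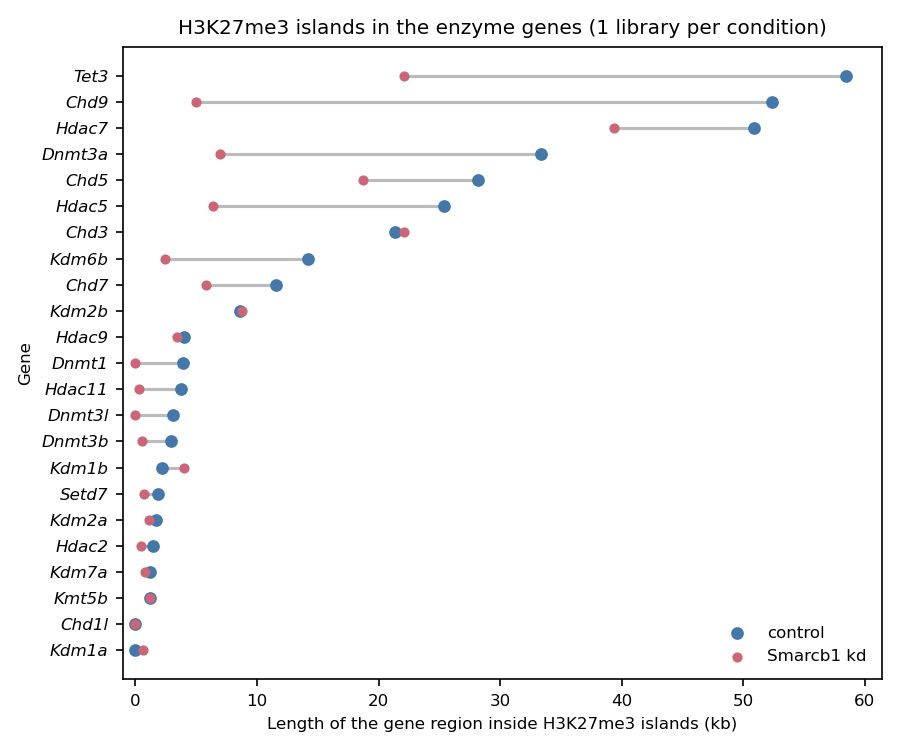
Length of each gene region inside H3K27me3 islands, in kb, in control (blue) and after Smarcb1 kd (red), for the 23 members with an island in either condition. Points are single libraries and grey lines join the conditions. The longest grey lines belong to Chd9, Tet3, Dnmt3a and Hdac5.

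The other antibodies showed smaller shifts in length. The length under Smarca4 peaks was 270.1 kb in ctrl and 233.9 kb after kd (86.6% of ctrl, against 78.6% for all genes). Under H3K27ac it was 428.8 and 525.7 kb (123%, against 121%), and under H3K4me3 417.7 and 425.4 kb (102%, against 109%). Under Ezh2 it was 6.3 and 8.9 kb (141%, against 176%). Of the 96.9 kb by which the members' H3K27ac length was higher after kd, 48.0 kb lay in Chd9, and without Chd9 the kd length was 113% of ctrl.

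Smarca4 peaks were dense in the members. There were 382 peaks in ctrl and 369 after kd, with a median of 3 per gene in each condition against 1 for all genes. Per 10 kb of gene region the medians were 0.689 in ctrl and 0.633 after kd, against 0.412 and 0.393 for all genes. Of the ctrl peaks 131 (34.3%) were control-only, against 41.3% in all gene regions, and of the kd peaks 107 (29.0%) were kd-only, against 27.6%. Peaks called in 1 condition only stood low in their lists, with a median standing of 32.0 in ctrl and 31.5 after kd, against 73.5 and 68.0 for shared peaks. They also held fewer CG in their central 300 bp, with medians of 4 in ctrl and 5 after kd against 8 for shared peaks in each condition. Over the whole lists the medians were 5 in control-only, 7 in kd-only and 11 in shared peaks.

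The members with most control-only peaks were Chd5 (13), Hdac5 (10) and Tet1 (9), followed by Dnmt1, Dnmt3a and Kdm5b with 7 each. Those with most kd-only peaks were Kdm2b and Tet2 (9 each), Chd2 (8), and Chd9 and Dnmt3a (7 each). Dnmt3a therefore stood in both groups, with 27 peaks in ctrl and 26 after kd. In Chd2, a remodeller linked to transcribed chromatin, 6 of 8 ctrl peaks and 8 of 10 kd peaks were called in that condition only. After the Chd9 peak, the strongest control-only peaks were in Hdac8 (127) and Chd3 (125). After the Setd1a peak, the strongest kd-only peaks were both in Hdac9 (140 and 120), the first of them 100% repeat-masked.

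**Figure D5:**
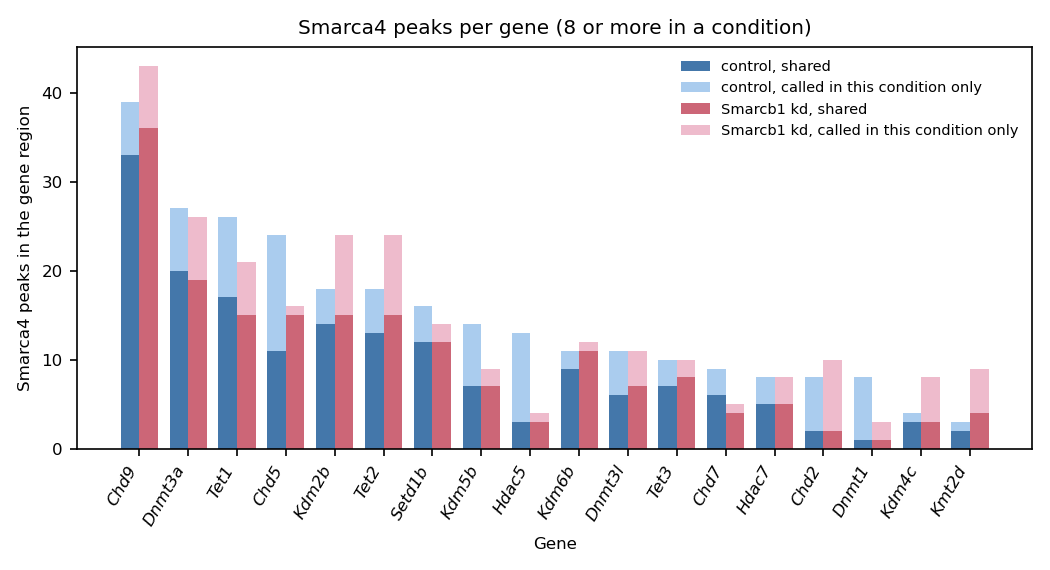
Smarca4 peaks per gene region in control (blue) and after Smarcb1 kd (red), for the members with 8 or more peaks in a condition (bars from 0, 1 library each). The pale upper part counts peaks called in that condition only, which is largest in control for Chd5 (13) and Hdac5 (10).

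The Ezh2 calls that differed between conditions were of different make-up. The 5 control-only peaks in members had a median of 0 CG in their central 300 bp, and 3 of them, in Chd9, Hdac9 and Kdm2a, were at least 50% repeat-masked. The 6 kd-only peaks had a median of 38.5 CG, and 0 of them was that repeat-rich. Shared peaks had medians of 40.0 CG in ctrl and 43.0 after kd. The same contrast held over the whole lists, with medians of 1 CG in control-only, 26 in kd-only and 27 in shared peaks. The Dnmt3b peak, with 57 CG, was the exception among the control-only peaks. The kd-only Ezh2 peaks of Chd7 (score 37), Hdac7 (29), Kdm2b (37) and Kdm7a (43 and 14) had standings of 9.92 or less, and that of Hdac9 (69) had a standing of 27.2.

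For the histone marks, the control-only H3K27me3 islands that stood highest were in Chd9 (87.9), Hdac5 (74.9) and Tet3 (56.9), and the kd-only list held the Kdm1a island alone. Of 35 ctrl islands 10 were control-only, and of 30 kd islands 1 was kd-only (28.6% and 3.33%, against 37.4% and 17.7% in all gene regions). The highest control-only H3K27ac islands were in Setd5 (standing 97.8), Kdm3b (91.9) and Kdm2a (86.9). All lay within introns, that of Kdm2a within 1 kb of a coding start. The highest kd-only ones were at the starts of Kdm6a (90.0) and Dnmt3a (83.9) and at the end of Kdm6b (81.8). Control-only islands made up 23.4% of the ctrl and kd-only islands 44.4% of the kd H3K27ac islands in members, against 26.1% and 50.4% in all gene regions. Repeats were common among H3K27ac islands. In members 13 of 25 control-only (52.0%) and 27 of 72 kd-only islands (37.5%) were at least 50% repeat-masked. Among shared islands the shares were 29.3% in ctrl and 32.2% after kd. The control-only H3K4me3 islands had standings of at most 30.8 (Kmt2c). The highest kd-only H3K4me3 islands were in Hdac10 (50.9, at its start), Hdac9 (36.1, 100% repeat-masked) and Kdm2b (35.6).

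A wider set of 65 writers, erasers and cofactors outside these gene names was listed for comparison. It comprised other lysine and arginine methyltransferases, acetyltransferases, sirtuins, further Jumonji genes and DNA methylation readers. Smarca4 was called in the gene region of 62 in both conditions (95.4%, against 67.9% of all genes) and of 2 after kd alone (3.08%, against 3.85%). H3K27me3 was called in 10 in both (15.4%, against 32.6%), 8 in ctrl alone (12.3%, against 9.74%) and 0 after kd alone (against 2.95%). H3K27ac was called in 33 in both (50.8%, against 29.3%), 0 in ctrl alone (against 3.06%) and 21 after kd alone (32.3%, against 18.9%). Ezh2 was called in 5 in both (7.69%, against 9.41%), 6 in ctrl alone (9.23%, against 3.19%) and 3 after kd alone (4.62%, against 5.96%). All 10 acetyltransferases, which oppose the Hdac enzymes, had Smarca4 and H3K4me3 in both conditions. H3K27ac was called in 9 of them in both and in 1 after kd alone. Over all genes, 67.9% had Smarca4, 62.6% H3K4me3 and 29.3% H3K27ac in both conditions. The gene of Ezh2 itself had Smarca4, H3K27ac and H3K4me3 in both conditions and no H3K27me3, and so did Smarca4.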

How the data were processed

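The data were the deposited lists of ChIP-seq regions from 5 antibodies in control and Smarcb1 kd cells, 1 library each. The study lists 14 samples, of which 4 are inputs that entered only through the authors' peak calling. By the submitters' processing notes and the methods, reads were trimmed with Trim Galore, aligned to mm10 with Bowtie2, and filtered with SAMtools 1.9 for unique reads. The authors called Smarca4 and Ezh2 peaks with MACS2, and those deposited lists give a score per peak. They called histone marks with SICER, and those deposited lists give a p-value per island. The peak names and labels speak of an IgG background and the methods of input, and which was used could not be settled. The values rest on reads of 1 library, so intervals over replicates cannot be given, and the read depth is unknown (the methods state a nominal 20 M reads for the libraries made in the authors' laboratory).

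The lists, restricted to chromosomes 1 to 19 and the sex chromosomes (0 to 61 regions per list left out), were intersected with GENCODE M21 gene regions using bedtools 2.31.1, python 3.11.15 and pandas 2.3.3, with 1 shared base as the minimum. A region was control-only or kd-only when no region of the same antibody in the other condition overlapped it. RefSeq supplied promoter sequences and repeat masking came from the lower-case letters of the mm10 assembly. The methods name a later GENCODE release than the M21 used here. The overlap steps were tested on simulated data. No test between conditions was possible, and counts are set beside those over all protein-coding genes.

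The members and gene lists were chosen with earlier results of these data known. Named genes are the Dnmt and Tet members, members with Ezh2 or H3K27me3, members called in 1 condition alone (at most 8 per antibody and direction), the 5 with most Smarca4 peaks in each class, members without H3K4me3 at the gene start, and the 3 strongest regions per antibody and class. Other members were named after their values were seen.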

Additional observations from a re-analysis of the deposited data

How the results depend on the processing

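Of 115 recomputed values, 84 stayed within 1.5 times the reported count (or, for the H3K27me3 length, close to it) and 31 moved further. Most of these are counts of 0 to 3 members, and the cause was not tested. With a stricter threshold (peak score 50, and −log10 p 10 in H3K27ac islands or 20 in H3K27me3 and H3K4me3 islands, as minimum), members called after kd alone numbered 0 for Ezh2, 2 for H3K27me3, 19 for H3K27ac and 2 for H3K4me3, and kd-only Smarca4 peaks numbered 59. Within 1 kb of the gene start, members in ctrl alone numbered 0 for Smarca4, 1 for Ezh2, 0 for H3K27ac and 1 for H3K4me3, members after kd alone 0 for H3K27me3 and 1 for H3K4me3, and control-only and kd-only Smarca4 peaks 6 and 11. Without regions that were at least 50% repeat-masked, H3K27me3 after kd alone and H3K27ac in ctrl alone fell to 0. With lists of equal length, H3K27ac in ctrl alone was 2. With regions assigned by midpoint, H3K4me3 was 1 in ctrl alone and 1 after kd alone. Without regions that touch another gene, Smarca4 in ctrl alone was 2 and H3K4me3 after kd alone 3. In gene regions of at least 20 kb, Smarca4 after kd alone was 0. Further alternatives were chosen after seeing the data. In the window around any coding start, members in ctrl alone numbered 0 for Smarca4, 1 for Ezh2 and 0 for H3K27ac, members after kd alone 0 for H3K27me3 and 1 for H3K4me3, and Smarca4 peaks 19 control-only and 22 kd-only. Without chromosomes 8, X and Y, Smarca4 was 0 in ctrl alone and 1 after kd alone and H3K27ac 0 in ctrl alone. The H3K27me3 length after kd was between 43.8% and 52.2% of ctrl over its alternatives. No paired analysis was possible because there was 1 library per antibody and condition, and for the same reason no replicate could be left out.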
